A study of Mus musculus with 19 samples.

Results

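Genes for making and exporting leukotrienes were followed, 10 of the 26221 rows of the deposited normalized table. They were taken by their symbols for their known roles, with earlier results of these data known. The 10 genes were Pla2g4a, Alox5, Alox5ap, Ltc4s, Mgst2, Mgst3, Lta4h, Abcc1, Ggt1 and Dpep1, and all had a row in the count table too. RNA was sequenced in bulk from CD45-negative EpCAM-positive nasal epithelial cells of naïve mice of 1 transgenic strain, ChAT(BAC)-eGFP, in which a bacterial artificial chromosome with Chat regulatory sequence drives enhanced green fluorescent protein (eGFP). The eGFP-positive cells, called brush cells by the submitters, were sorted into a gate of low forward and side scatter (FSClow, n = 9 libraries) and a gate of high scatter (FSChi, n = 5), and eGFP-negative cells formed the control group (EpCAM, n = 5). All 3 groups carry the transgene, none was challenged, and eGFP reports transgene activity rather than Chat protein. The labels give neither ages nor whether libraries came from separate animals, so the p-values measure the spread between these libraries only, and that spread could be technical. In bulk libraries, fewer cells of a type and less RNA per cell cannot be told apart.

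Leukotrienes are lipid mediators made from arachidonic acid. A cytosolic phospholipase A2 releases the fatty acid from membranes, 5-lipoxygenase with its activating protein turns it into leukotriene A4, and that intermediate is then either joined to glutathione by leukotriene C4 synthase or hydrolysed to leukotriene B4. Leukotriene C4 leaves the cell through a transporter and is trimmed outside to leukotrienes D4 and E4, and these cysteinyl leukotrienes are known for their actions in airway inflammation and as products of mast cells, eosinophils and macrophages as well as of tuft cells, a chemosensory type of epithelial cell that includes brush cells.

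Library totals ran from 1348403 to 7477626 counts. Of the 19 columns of the count table, 14 agreed best with the single-library file of the same name, and the other 5 (FSChi replicates 3, 4 and 5 and EpCAM replicates 1 and 2) agreed better with another file of their own group. None agreed best with a file of another group. FSChi replicate 5 had no close match, with a best correlation of 0.927 against 0.961 to 0.972 for the other 18 columns, and its best file was also the match of FSChi replicate 3. Levels in CPM are counts scaled to each library's total after adjustment by its TMM scaling factor from edgeR, unless plain totals are named. The summed level of 15 tuft cell markers was 10400 to 14220 CPM in FSClow and 8960 to 15470 CPM in FSChi. In EpCAM it was 75.8 to 150.6 CPM. The labelled cell type thus matched its markers in both eGFP-positive gates. The summed level of 31 leukocyte markers was 2.42 to 14.4 CPM in FSClow, 5.60 to 22.5 CPM in FSChi and 5.43 to 11.2 CPM in EpCAM, with 15, 17 and 17 of the markers at 0. In FSClow, the 7 macrophage or dendritic cell markers summed to 2.42 to 9.21 CPM. Of 7 mast cell markers, Fcer1a and Ms4a2 had no count there and the other 5 had 1 to 4 counts each over the 9 libraries. All 4 eosinophil markers were at 0, as were 4 of the 5 markers of T or natural killer cells, with 1 count of Cd3d. FSChi had the highest median of the leukocyte sum, 18.1 CPM, against 7.02 CPM in FSClow and 5.57 CPM in EpCAM. There, the macrophage or dendritic cell markers summed to 3.55 to 22.5 CPM. Mrc1 had 98 counts, Cd68 had 87 and Csf1r had 4, and Adgre1, Itgax, Cd209a and Cx3cr1 had none. Of the eosinophil markers in FSChi, Siglecf had 14 counts and Prg2 had 1, and Epx and Ccr3 had none. Neutrophil markers summed to at most 4.96 CPM in FSClow, 8.935 CPM in FSChi and 0.467 CPM in EpCAM, and B cell markers to at most 1.71, 2.42 and 0.749 CPM. FSChi libraries also held markers of other cells of the nose. Their summed level of 5 olfactory sensory neuron markers had a median of 1114 CPM (20.1 to 2376), against 30.4 CPM in FSClow and 3381 CPM in EpCAM, and that of 3 basal cell markers 617 CPM (16.4 to 1666), against 1.26 and 1702 CPM. In FSClow replicates 1, 2, 6 and 9 the basal cell markers summed to 107, 57.0, 30.9 and 45.0 CPM, and in the others to at most 1.26 CPM.

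The first comparison asked how brush cells of low scatter differ from the other epithelial cells in these genes. Pla2g4a, Alox5, Alox5ap and Ltc4s, which carry arachidonic acid as far as leukotriene C4, were higher in FSClow, and Mgst2, Mgst3, Lta4h and Abcc1 were lower. Of 10 members, 9 passed the filter on low counts (about 2.77 CPM on plain library totals in at least 5 libraries) and were tested. With an edgeR adjusted p under 0.05 as the call, 4 of the 9 were higher, beside 22.0% of all 13340 tested genes, and 4 were lower, beside 23.1%. The median log2 fold change of the 9 was 0.93, against 0.05 over all tested genes. In FSChi against EpCAM the same 4 genes were higher, beside 13.5% of all genes, and Abcc1 was lower, beside 12.2%; the median was 0.48 against -0.02. In FSChi against FSClow, Mgst2 and Abcc1 were higher, beside 15.5% of all genes, and Pla2g4a and Alox5ap were lower, beside 9.30%, with a median of 0.26 against -0.01. These counts describe the genes and support no wider statement, because Alox5, Alox5ap and Ltc4s passed the filter through the eGFP-positive libraries and Mgst2 through the EpCAM libraries with 1 FSChi library. The first and second comparisons share the EpCAM libraries, and the third shares a group with each of them.

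**Figure D1:**
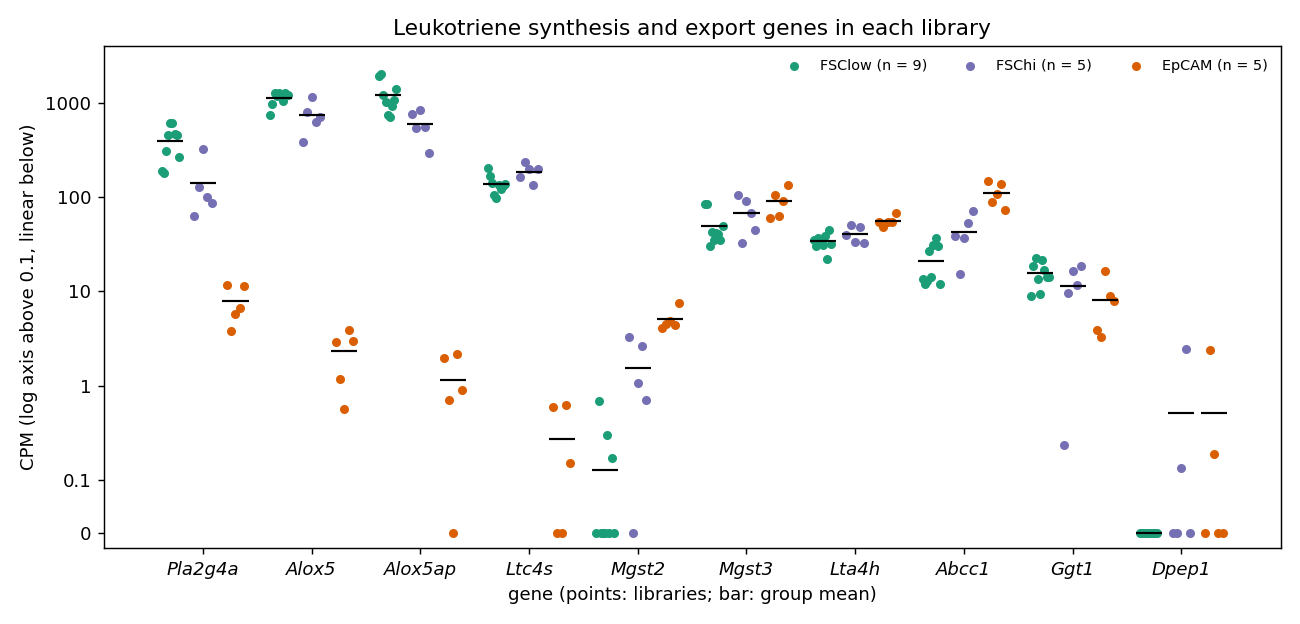
CPM of the 10 genes in each of the 19 libraries (points) with the group mean (bar), on an axis that is logarithmic above 0.1 CPM. Every FSClow and FSChi library lies above every EpCAM library for Pla2g4a, Alox5, Alox5ap and Ltc4s, and every FSClow library lies below every EpCAM library for Mgst2, Lta4h and Abcc1.

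The promoter windows of 3 of the 4 higher genes are printed here to show the sequence at the start of the genes that set the eGFP-positive cells apart. RefSeq windows of GRCm38.p6, from 250 bases before to 50 bases after a gene start, were found for 8 of the 10 members, and not for Alox5ap and Abcc1. The windows are Alox5 at chr6:116461129-116461428, Ltc4s at chr11:50238483-50238782 and Pla2g4a at chr1:149961241-149961540, all on the minus strand and written 5′ to 3′ along the gene. Capitals mark a match to the GC box GGGCGG.
Alox5: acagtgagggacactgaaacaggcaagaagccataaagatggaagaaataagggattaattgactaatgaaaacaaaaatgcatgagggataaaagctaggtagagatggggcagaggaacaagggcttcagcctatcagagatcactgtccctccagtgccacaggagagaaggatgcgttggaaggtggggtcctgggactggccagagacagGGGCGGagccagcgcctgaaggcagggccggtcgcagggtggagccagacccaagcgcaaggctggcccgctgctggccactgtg
Ltc4s: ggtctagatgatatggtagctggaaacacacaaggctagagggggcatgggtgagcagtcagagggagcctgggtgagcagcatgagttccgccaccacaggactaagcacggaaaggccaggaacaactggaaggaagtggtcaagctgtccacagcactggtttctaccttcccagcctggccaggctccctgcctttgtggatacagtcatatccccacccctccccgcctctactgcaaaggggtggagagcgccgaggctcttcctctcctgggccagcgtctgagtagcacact
Pla2g4a: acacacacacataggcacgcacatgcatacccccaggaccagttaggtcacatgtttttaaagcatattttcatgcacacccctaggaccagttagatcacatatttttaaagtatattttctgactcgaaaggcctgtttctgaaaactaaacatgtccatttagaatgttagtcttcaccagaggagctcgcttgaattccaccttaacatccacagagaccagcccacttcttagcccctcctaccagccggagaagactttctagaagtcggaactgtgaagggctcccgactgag
Both strands were searched for the GC box, for the octamer ATGCAAAT and for the STAT motif TTCNNNGAA. The Alox5 window held 1 GC box, whose first base lies 35 bases before the start site, and the windows of Ltc4s and Pla2g4a held none of the 3 motifs. Of all 32851 windows, 35.7% held the GC box, 1.74% the octamer and 8.30% the STAT motif. Among the other members, the Mgst3 window held 4 GC boxes, of which 2 overlap by 1 base, 2 of the 4 Ggt1 windows held 1 each, and the Mgst2 window held 1 STAT motif.

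Release of arachidonic acid is the task of Pla2g4a, the cytosolic phospholipase A2 (chromosome 1, 149829618 to 149961290, GRCm38.p6). Its level in FSClow was 178 CPM in the lowest library, 456 CPM in the median and 615 CPM in the highest. In FSChi it was 63.3, 129, 323, 99.3 and 87.5 CPM in replicates 1 to 5, and in EpCAM 11.6, 3.80, 5.80, 6.70 and 11.3 CPM. All eGFP-positive libraries lay above all EpCAM libraries, while FSChi and FSClow overlapped only because FSChi replicate 3 stood far above the other 4. The log2 fold change was 5.64 ± 0.49 (SE) in FSClow against EpCAM (edgeR adjusted p = 2.4e-09) and 4.15 ± 0.47 in FSChi against EpCAM (edgeR adjusted p = 4.9e-07). The fitted difference of FSChi from FSClow for Pla2g4a was -1.48 ± 0.38 (SE) in log2 units (edgeR adjusted p = 0.0063), and the largest shift on leaving out a library was to -2.03, without FSChi replicate 3.

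Oxidation to leukotriene A4 needs Alox5, the 5-lipoxygenase (chromosome 6, 116410071 to 116461178), and Alox5ap, the membrane protein that presents arachidonic acid to it (chromosome 5, 149265004 to 149288153). Alox5 stood at 747.6, 1173 and 1271 CPM in the lowest, median and highest FSClow library. Its FSChi values were 388, 796, 1160, 626 and 700 CPM, and its EpCAM values 2.95, 1.19, 0.562, 3.90 and 3.01 CPM. No EpCAM library came near an eGFP-positive one, and the eGFP-positive gates overlapped. Alox5 was higher than in EpCAM by 8.87 ± 0.43 (SE) on the log2 scale in FSClow (edgeR adjusted p = 2.5e-13) and by 8.26 ± 0.43 in FSChi (edgeR adjusted p = 1.2e-12). The difference of the eGFP-positive gates, -0.61 ± 0.28 (SE), did not pass (edgeR adjusted p = 0.11), although it did without FSChi replicate 3 (-0.81, adjusted p = 0.0433).

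Alox5ap reached 704, 1079 and 2003 CPM in the lowest, median and highest FSClow library, with replicates 1 and 2 highest. In FSChi the values were 755, 536, 834, 547 and 292 CPM, and in EpCAM 1.96, 0.713, 0, 2.18 and 0.904 CPM. The eGFP-positive libraries again lay wholly above EpCAM and overlapped each other. The log2 fold change was 9.99 ± 0.58 (SE) in FSClow (edgeR adjusted p = 3.7e-12) and 8.95 ± 0.57 in FSChi (edgeR adjusted p = 3.3e-11), each against EpCAM. For Alox5ap, FSChi differed from FSClow by -1.04 ± 0.36 (SE) in log2 units (edgeR adjusted p = 0.036), a call that ended when any 1 of FSClow replicates 1, 2 and 9 or FSChi replicates 2, 4 and 5 was left out (edgeR adjusted p from 0.0504 to 0.116).

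The partners were also compared within each library, where scaling drops out, as the ratio of Alox5ap counts to Alox5 counts with 0.5 added to each. This ratio was 0.591, 0.896 and 2.55 in the lowest, median and highest FSClow library, from 0.417 to 1.95 in FSChi and from 0.143 to 0.677 in EpCAM. The groups overlapped in all 3 pairings. The mean log2 ratio was 0.05 ± 0.72 (SD, n = 9) in FSClow and -1.30 ± 0.95 (SD, n = 5) in EpCAM, a difference of 1.35 (two-sided exact permutation p = 0.0080, adjusted p = 0.016 over 6 ratio tests). FSChi, at -0.31 ± 0.81 (SD, n = 5), differed from EpCAM by 0.99 (exact permutation p = 0.11, adjusted p = 0.17) and from FSClow by -0.36 (exact permutation p = 0.41, adjusted p = 0.47), and neither passed. The EpCAM ratios rest on 33 Alox5ap and 68 Alox5 counts over 5 libraries, and the lowest of them, in replicate 3, comes from 0 Alox5ap and 3 Alox5 counts and is set by the added 0.5. Without that library, the difference of FSClow from EpCAM was 0.97 (exact permutation adjusted p = 0.0448).

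Conjugation with glutathione makes leukotriene C4. Ltc4s, the leukotriene C4 synthase (chromosome 11, 50236461 to 50238532), stood at 98.6, 133 and 205 CPM in the lowest, median and highest FSClow library. Its FSChi values were 162, 235, 200, 135 and 197 CPM. EpCAM held 8 counts in all, at 0.589, 0, 0, 0.623 and 0.151 CPM. The eGFP-positive gates overlapped and both lay above every EpCAM library. Ltc4s was higher than in EpCAM by 8.76 ± 0.41 (SE) on the log2 scale in FSClow (edgeR adjusted p = 1.6e-13) and by 9.19 ± 0.42 in FSChi (edgeR adjusted p = 1.6e-13). The mean in FSClow was 138 ± 31.9 CPM (SD, n = 9) and that in FSChi 186 ± 38.5 CPM (SD, n = 5), a log2 difference of 0.43 ± 0.23 (SE) that did not pass (edgeR adjusted p = 0.18). Among the 4 genes higher than in EpCAM, Ltc4s alone had a fitted difference above 0 between the high and the low scatter gate.

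Mgst2 and Mgst3 are microsomal glutathione S-transferases of the same protein family, and Mgst2 is known to make leukotriene C4 in cells outside the blood lineage. Mgst2 (chromosome 3, 51636912 to 51682675) ran opposite to Ltc4s. FSClow held 4 counts in all, with 6 of 9 libraries at 0 and the highest at 0.683 CPM. FSChi stood at 3.29, 0, 1.08, 2.61 and 0.709 CPM and EpCAM at 4.12, 4.52, 4.87, 4.36 and 7.53 CPM. All eGFP-positive libraries lay below all EpCAM libraries, with FSChi between the other groups. On the log2 scale, Mgst2 in FSClow differed from EpCAM by -4.90 ± 0.69 (SE; edgeR adjusted p = 2.3e-06) and FSChi was higher than FSClow by 3.32 ± 0.73 (edgeR adjusted p = 0.0016). FSChi against EpCAM gave -1.58 ± 0.63 (SE, edgeR adjusted p = 0.068), which passed without FSChi replicate 1 (-2.04, adjusted p = 0.0383) and without FSClow replicate 2 (-1.62, adjusted p = 0.0499).

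In FSChi, Mgst2 was set beside the markers of olfactory sensory neurons and of ciliated cells. The summed neuron markers were 2305, 20.1, 1047, 2376 and 1114 CPM in replicates 1 to 5. The library without an Mgst2 count was also lowest in these markers, and both libraries above 2 CPM of Mgst2 were highest. Replicates 1 and 4 held 14 Mgst2 counts each, and replicates 3 and 5 held 8 and 2, too few to rank the libraries within these pairs. The summed ciliated cell markers were 23.04, 0.8035, 5.106, 19.04 and 7.088 CPM, with the same lowest library and the same 2 highest. These values do not single out a cell type. The part of other cells in the Mgst2 difference was not tested.

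Mgst3 (chromosome 1, 167371966 to 167393841) was abundant in all groups. It stood at 30.2, 42.1 and 85.3 CPM in the lowest, median and highest FSClow library, from 32.9 to 106 CPM in FSChi and from 59.7 to 133 CPM in EpCAM. All groups overlapped. Its log2 fold change was -0.87 ± 0.28 (SE) in FSClow against EpCAM (edgeR adjusted p = 0.014), a call that ended without EpCAM replicate 5 (-0.69, adjusted p = 0.0671) and with the replicate number as a block (-0.79, adjusted p = 0.118). FSChi against EpCAM gave -0.39 ± 0.33 (SE, edgeR adjusted p = 0.42) and FSChi against FSClow 0.48 ± 0.29 (SE, edgeR adjusted p = 0.23), and neither passed.

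**Figure D2:**
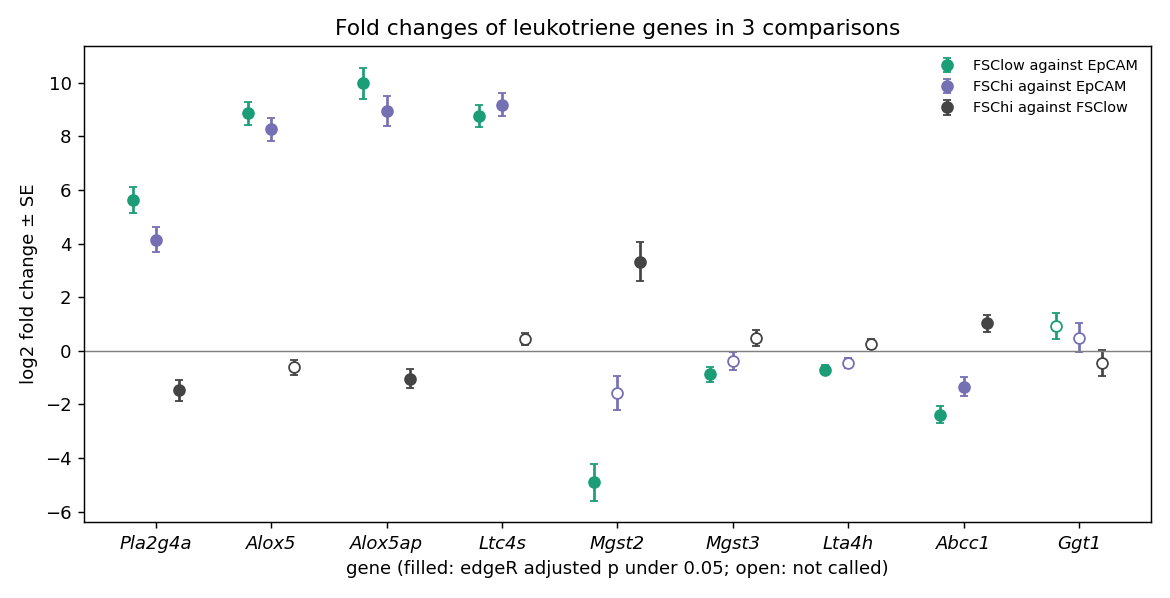
Log2 fold change ± SE of the 9 tested genes in the 3 comparisons, with filled points for an edgeR adjusted p under 0.05. Alox5, Alox5ap and Ltc4s lie between 8.26 and 9.99 in both comparisons with EpCAM, Mgst2 and Abcc1 lie below 0 there, and the comparison of FSChi with FSClow stays between -1.48 and 3.32.

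The other fate of leukotriene A4 is hydrolysis to leukotriene B4 by Lta4h (chromosome 10, 93453396 to 93484896), an enzyme found in most tissues. Lta4h stood at 22.1, 35.2 and 45.2 CPM in the lowest, median and highest FSClow library. Its FSChi values were 40.0, 50.6, 33.5, 48.3 and 33.0 CPM and its EpCAM values 54.8, 47.8, 54.7, 54.2 and 67.5 CPM. Every FSClow library lay below every EpCAM library, and FSChi overlapped both. The log2 fold change of -0.71 ± 0.17 (SE) in FSClow against EpCAM passed (edgeR adjusted p = 0.0017). That of FSChi against EpCAM, -0.45 ± 0.20 (SE, edgeR adjusted p = 0.11), did not pass, but did with relative log expression scaling (-0.57, adjusted p = 0.0393), which also moved the median of all tested genes from -0.02 to -0.14. FSChi and FSClow differed by 0.26 ± 0.18 (SE, edgeR adjusted p = 0.31), which did not pass.

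Counts of the enzymes at this branch were set against each other within each library. The ratio of Ltc4s to Lta4h counts was 2.88, 3.76 and 5.78 in the lowest, median and highest FSClow library. It was 4.04, 4.62, 5.98, 2.79 and 5.95 in FSChi and 0.0125, 0.00248, 0.00171, 0.0129 and 0.00334 in EpCAM, with 0.5 added to each count. Ltc4s counts thus exceeded Lta4h counts in every eGFP-positive library and fell short of them in every EpCAM library. The mean log2 ratio in FSClow was 2.00 ± 0.40 (SD, n = 9), that in FSChi 2.17 ± 0.46 (SD, n = 5) and that in EpCAM -7.73 ± 1.35 (SD, n = 5). FSClow differed from EpCAM by 9.74 (two-sided exact permutation p = 0.0010, the smallest it can give, adjusted p = 0.0060) and FSChi by 9.90 (exact permutation p = 0.0079, the smallest it can give, adjusted p = 0.016). FSChi and FSClow differed by 0.17 (exact permutation p = 0.47, adjusted p = 0.47). EpCAM replicates 1 to 5 held 3, 0, 0, 4 and 1 Ltc4s counts, so the size of the differences from EpCAM depends on the added 0.5. With 0.1 added instead they were 10.82 for FSClow and 10.99 for FSChi, and with 1 added 9.18 and 9.35. The messages differ in length, so the ratio compares libraries and not the amounts of the enzymes.

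**Figure D3:**
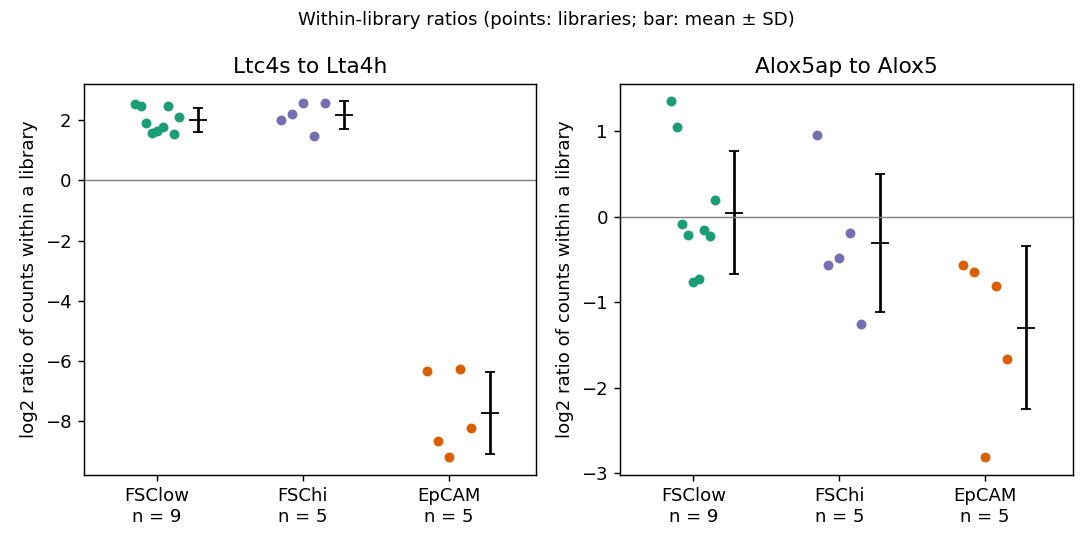
Log2 ratio of counts within a library for Ltc4s to Lta4h (left) and Alox5ap to Alox5 (right), by group, with points for libraries and a bar for the mean ± SD. The Ltc4s to Lta4h ratio separates all 14 eGFP-positive libraries from the 5 EpCAM libraries, whereas the Alox5ap to Alox5 ratios of the 3 groups overlap.

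Export of leukotriene C4 is a known task of Abcc1, the multidrug resistance protein 1 (chromosome 16, 14361453 to 14474878). It stood at 11.9, 14.3 and 37.0 CPM in the lowest, median and highest FSClow library. FSChi values were 38.3, 15.3, 37.1, 53.6 and 70.9 CPM, and EpCAM values 147, 88.4, 107, 137 and 72.8 CPM. Every eGFP-positive library lay below every EpCAM library, FSChi replicate 5 only narrowly, and FSChi overlapped FSClow through replicate 2. Abcc1 was lower than in EpCAM, and the log2 fold change was -2.38 ± 0.31 (SE) in FSClow (edgeR adjusted p = 7.7e-07) and -1.34 ± 0.36 in FSChi (edgeR adjusted p = 0.0077). It was higher in FSChi than in FSClow by 1.03 ± 0.31 (SE, edgeR adjusted p = 0.018), or by 0.83 without FSChi replicate 5 (adjusted p = 0.0764). In FSChi, Abcc1 was set beside the olfactory sensory neuron markers and no other marker list. FSChi replicate 2 was lowest in both. Replicate 5, highest in Abcc1, held 1114 CPM of the markers, and replicate 1, with 2305 CPM of the markers, held 38.3 CPM of Abcc1. The part of other cells in this difference was not tested.

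Outside the cell, Ggt1, a gamma-glutamyltransferase, turns leukotriene C4 into D4, and Dpep1, a membrane dipeptidase, turns D4 into E4. Ggt1 (chromosome 10, 75561076 to 75586193) stood at 8.92, 14.4 and 22.7 CPM in the lowest, median and highest FSClow library. FSChi values were 0.235, 9.64, 16.5, 11.8 and 18.4 CPM, and EpCAM values 3.93, 3.33, 16.3, 9.04 and 7.83 CPM. All groups overlapped, and FSChi replicate 1, with 1 count, was the lowest library. The differences did not pass, at 0.93 ± 0.49 (SE, edgeR adjusted p = 0.13) for FSClow against EpCAM, 0.48 ± 0.54 (adjusted p = 0.56) for FSChi against EpCAM and -0.45 ± 0.49 (adjusted p = 0.55) for FSChi against FSClow. Without FSChi replicate 1, the first of these passed (0.85, edgeR adjusted p = 0.0482).

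Dpep1 did not pass the filter and was not tested. It had no count in the 27879288 counts of FSClow, which allows up to 0.108 CPM on this plain total (3 counts, counting error only). FSChi held 14 counts, of which 13 were in replicate 4, and EpCAM held 11, of which 10 were in replicate 2. Its presence thus rested on 1 library in each of these groups.

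Levels of different genes were compared as CPM per kilobase of message. In FSClow the order of mean levels was Alox5ap at 1194 ± 458.5 CPM per kilobase (SD, n = 9), Alox5 at 464.5 ± 72.9, Ltc4s at 217 ± 50.2, Pla2g4a at 139 ± 58.4, Mgst3 at 45.2 ± 18.98, Lta4h at 16.5 ± 3.09, Ggt1 at 11.98 ± 3.73 and Abcc1 at 4.13 ± 1.97, with Mgst2 at 0.178. The mean ± SD ranges of Ltc4s and Pla2g4a overlapped, as did those of Lta4h and Ggt1. These ranges ignore that the genes share libraries, and the order of genes within a library was not tested. In FSChi the same 3 genes led, with Alox5ap at 580 ± 208, Alox5 at 303.5 ± 117 and Ltc4s at 293 ± 60.6 CPM per kilobase (SD, n = 5), and the ranges of neighbours overlapped. In EpCAM the order was led by Mgst3 at 82.4 ± 27.96, Lta4h at 27.0 ± 3.47 and Abcc1 at 21.6 ± 6.20 CPM per kilobase (SD, n = 5), and the ranges of Lta4h and Abcc1 overlapped. Relative to the FSClow mean, the EpCAM mean was 0.0945% for Alox5ap, 0.198% for Ltc4s, 0.207% for Alox5 and 1.99% for Pla2g4a. The same share had a median of 0.393% over the 15 tuft cell markers, with a range of 0.0164% to 69.3%. Whether a small number of brush cells in the EpCAM gate gave these counts was not tested.

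Within FSClow, some members rose and fell together and others ran opposite. Alox5ap and Ltc4s gave a Pearson's r of 0.81 over the 9 libraries (exact permutation adjusted p = 0.049 over 28 pairs of members), a Spearman's rho of 0.78 (exact permutation adjusted p = 0.080), and an r of 0.50 without the 2 libraries farthest from the median of Alox5ap, so that this relation leans on those libraries. Alox5ap and Pla2g4a ran in exactly opposite order over the 9 libraries. Replicates 1 and 2 had the most Alox5ap, 1910 and 2003 CPM, and the least Pla2g4a, 190 and 178 CPM. Replicates 6 and 5 had the least Alox5ap, 704 and 747.5 CPM, and the most Pla2g4a, 615 and 606 CPM. On log2 CPM, Pearson's r was -0.98 (exact permutation p = 2.8e-06, adjusted p = 7.7e-05) and Spearman's rho was -1 (exact permutation p = 5.5e-06, adjusted p = 0.00015). Without the 2 libraries farthest from the median of Alox5ap, r was -0.95. These values share library scaling. Replicates 1 and 2 were also the most alike pair of FSClow libraries, and the permutation p-values treat all 9 libraries as exchangeable. In the 5 FSChi libraries, too few for a correlation, replicate 3 was highest in both genes, replicate 5 was lowest in Alox5ap and replicate 1 was lowest in Pla2g4a.

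**Figure D4:**
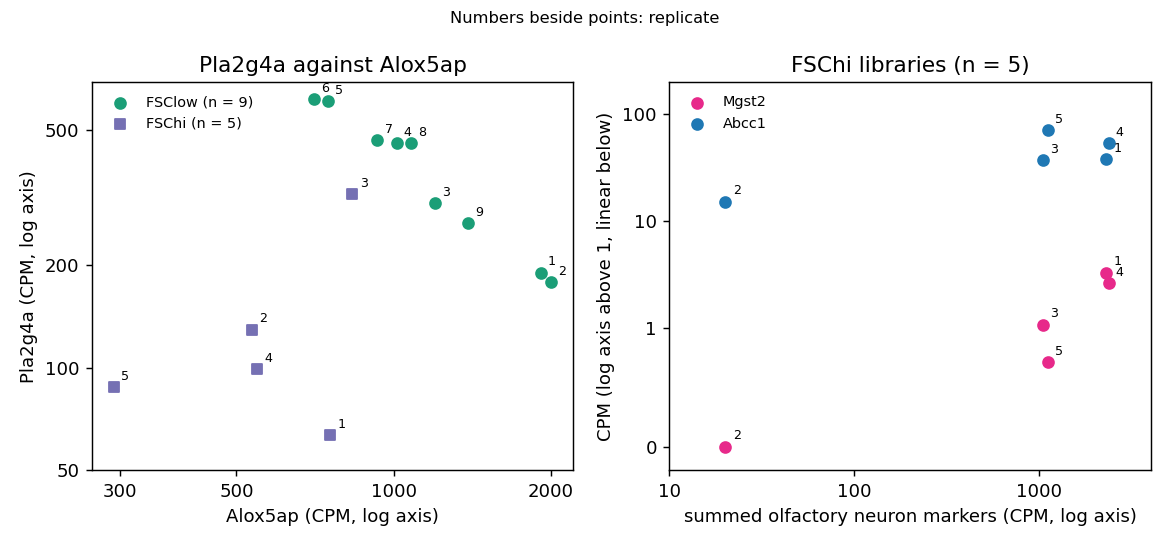
Left, Pla2g4a against Alox5ap (CPM, log axes) in FSClow and FSChi libraries, numbered by replicate, with the FSClow points in falling order from 615 to 178 CPM of Pla2g4a as Alox5ap rises from 704 to 2003 CPM. Right, Mgst2 and Abcc1 (CPM) against summed olfactory sensory neuron markers (CPM) in the 5 FSChi libraries, where replicate 2 is lowest in all 3 measures.

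Other genes of the pathway were read from a list by role, of which 49 of 50 symbols had a row and 20 passed the filter. In FSClow against EpCAM, 5 of the 20 were higher and 8 lower, beside 22.0% and 23.1% of all tested genes, with a median log2 fold change of -0.45. In FSChi against EpCAM, 2 were higher and 5 lower, beside 13.5% and 12.2% of all tested genes, with a median of -0.70. In FSChi against FSClow, 6 were higher and 2 lower, beside 15.5% and 9.30%, with a median of -0.33. Among 6 tested phospholipases A2, Pla2g7, which breaks down platelet-activating factor and oxidised phospholipids, stood at 365 CPM in FSClow, 111 CPM in FSChi and 9.18 CPM in EpCAM. Its log2 fold change was 5.30 ± 0.44 (SE) in FSClow (edgeR adjusted p = 9.3e-10) and 3.60 ± 0.42 in FSChi (edgeR adjusted p = 6.0e-07), and FSChi differed from FSClow by -1.70 ± 0.35 (edgeR adjusted p = 0.00091). Pla2g6 was higher in FSClow by 1.15 ± 0.37 (SE, edgeR adjusted p = 0.012). Of 3 genes that load arachidonic acid into membranes, Acsl4 was higher in FSClow by 1.70 ± 0.35 (SE, edgeR adjusted p = 0.00032) and in FSChi by 1.04 ± 0.38 (edgeR adjusted p = 0.045). Lpcat3 was higher in FSClow by 0.66 ± 0.19 (SE, edgeR adjusted p = 0.0053).

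Of 3 other lipoxygenases tested, Alox12 and Alox15 were lower in FSClow than in EpCAM, and Alox12e, at 29.5 against 23.5 CPM, did not pass (edgeR adjusted p = 0.58). Alox12 stood at 0.680 CPM in FSClow, 4.09 CPM in FSChi and 29.4 CPM in EpCAM, and Alox15 at 2.19, 8.04 and 33.5 CPM. Their log2 fold changes in FSClow against EpCAM were -5.36 ± 0.75 (SE, edgeR adjusted p = 2.7e-06) and -3.95 ± 0.80 (edgeR adjusted p = 0.00035). Ptges, which makes prostaglandin E2 and belongs to the protein family of Alox5ap and Ltc4s, was lower than in EpCAM, with log2 fold changes of -5.21 ± 0.44 (SE) in FSClow (edgeR adjusted p = 1.0e-09) and -2.81 ± 0.47 in FSChi (edgeR adjusted p = 9.0e-05). Mgst1 of the same family fell by 1.26 ± 0.22 (SE, edgeR adjusted p = 3.9e-05) on the log2 scale in FSClow. Cotl1, whose product binds 5-lipoxygenase, had a mean of 2.28 CPM in FSClow against 49.9 CPM in EpCAM, and its log2 fold change was -4.45 ± 0.51 (SE; edgeR adjusted p = 1.1e-07). Ptgr1, which inactivates leukotriene B4, stood at 0.373 CPM in FSClow, 7.43 CPM in FSChi and 16.2 CPM in EpCAM, and FSClow differed from EpCAM by -5.00 ± 0.74 (SE) in log2 units (edgeR adjusted p = 5.0e-06). Alox12, Cotl1, Mgst1, Ptges and Ptgr1 were all higher in FSChi than in FSClow, by 0.73 to 3.95 on the log2 scale. Pla2g12a was higher there too, by 1.39 ± 0.40 (SE, edgeR adjusted p = 0.012). It stood at 4.52 CPM in FSClow, 11.8 CPM in FSChi and 6.86 CPM in EpCAM. FSChi also had higher olfactory neuron and basal cell markers than FSClow, whose part in these differences was not tested.

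Among other exporters, Abcc3 was higher in FSClow than in EpCAM, at 34.6 against 11.3 CPM, or by 1.61 ± 0.32 (SE) in log2 units (edgeR adjusted p = 0.00023). FSChi, at 12.4 CPM, differed from FSClow by -1.50 ± 0.33 (SE, edgeR adjusted p = 0.0015). Abcc4, which exports prostaglandins and leukotrienes, was lower in both gates, with log2 fold changes of -1.08 ± 0.33 (SE, edgeR adjusted p = 0.0091) in FSClow and -1.52 ± 0.39 (edgeR adjusted p = 0.0055) in FSChi. None of the 6 leukotriene receptor genes passed the filter. Cysltr1 had 0 counts in FSClow, 3 in FSChi and 20 in EpCAM, Cysltr2 had 7, 0 and 0, and Oxgr1, a receptor gene for leukotriene E4, had 14, 17 and 13. Gpr17 had 7, 1 and 2, Ltb4r1 had 0, 1 and 23, and Ltb4r2 had 0, 9 and 54. Of the untested processing genes, Ggt5, which also converts leukotriene C4, had 3 counts in FSClow, 5 in FSChi and 118 in EpCAM, and Dpep2 had 1, 39 and 0.

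Genes of like pattern were sought among all tested named genes by the root mean square difference of log2 CPM over the 19 libraries, after subtracting each gene's own mean. Closest to Alox5 were Pik3cg at 0.53, Avil at 0.57 and Sh2d6 at 0.60. Closest to Alox5ap were Fyb at 0.49 and Sh2d6 at 0.75, and closest to Ltc4s were Cd300lf at 0.38, Ly6g6f at 0.56 and Pik3r5 at 0.62. Among the members themselves, the difference was 0.72 between Alox5 and Alox5ap, 0.76 between Alox5 and Ltc4s and 1.04 between Alox5ap and Ltc4s. Avil and Sh2d6 were among the 15 tuft cell markers.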

How the data were processed

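RNA sequencing libraries of 19 sorted samples were grouped by their labels into FSClow (9), FSChi (5) and EpCAM (5). The build was mm10 and the tools were featureCounts, DESeq2, RSEM 1.2.21, Picard 1.1073 and STAR 2.4.2a, per the submitters' processing notes, which give no roles. The authors deposited raw counts, whole numbers of reads for 27179 genes, and a normalized table of 26221 rows, treated as a signal, in which 100.0% of values were a whole count divided by a library factor (tolerance 0.01). Files of single libraries, as deposited, give expected counts from RSEM and, per the file headers, TPM. Symbols came from RefSeq (GRCm38.p6) for 25275 identifiers and from rows with the same counts for 582, and 1-based coordinates and promoter windows came from RefSeq. Whether counting used strand is not given in the sources used here, and no other protein-coding gene overlaps a member.

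Counts were analysed with edgeR 4.0.16 in R 4.3.3: filterByExpr by group, TMM scaling and the robust quasi-likelihood F test, fitted by group over all 19 libraries, with Benjamini-Hochberg adjustment over 13340 genes. A gene with an adjusted p under 0.05 is called. SE values of log2 fold changes come from the F statistic. Ratios within a library were tested by exact permutation, two-sided (SciPy 1.17.1). Message length is the median over libraries of the length the single-library files give. The model was run on simulated data with 200 changed genes. These are far fewer than the genes called in each comparison, so the simulation does not cover changes as wide as those here. Replicates of a group differed by more than sampling noise. The closest pair was FSClow replicates 1 and 2, with a mean squared difference per gene of 5.51 in units of sampling variance. The other FSClow pairs ran from 11.62 to 60.46.

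The members, the other pathway genes, the marker lists and the tests were chosen with earlier results of these data known. All 10 members are named in every comparison. Called pathway genes may be named, and the 3 named genes nearest in pattern to Alox5, Alox5ap and Ltc4s, of which 1 is not reported here. Alternatives were limma 3.58.1 on log2(TPM + 1), log2(TPM + 0.1) and log2 of the deposited normalized values, DESeq2 1.42.0, RSEM expected counts rounded to whole numbers, other scalings and filters, fits of only the 2 groups compared, only libraries that agree best with their own file, a replicate block and leaving out each library. Leaving out the nearly empty FSChi replicate 3 file (6807 expected counts) was added after seeing the data.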

Additional observations from a re-analysis of the deposited data

Results flagged for a closer look

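The gap between an extreme library and its neighbour was set against the group's range, within groups of 4 to 10 libraries. It was large for 5 of 35 sets of values, which took in the ratios within a library beside the genes. Chance gives such a gap in about 1 of 20 only where values are normally distributed. Values of Mgst2 and Dpep1 rest on few counts, so this rate cannot be applied to them. No excess over chance can be read from the flags. Pla2g4a stood at 323.0 CPM in FSChi replicate 3, against 63.3 to 129 CPM in the other 4 libraries. Mgst2 reached 0.683 CPM in 1 FSClow library, where 6 others had no count, and 7.53 CPM in EpCAM replicate 5, where the next was 4.87 CPM. Dpep1 reached 2.43 CPM in FSChi replicate 4, from 13 counts, and 2.38 CPM in EpCAM replicate 2, from 10 counts. FSChi replicates 3 and 4 and EpCAM replicate 2 are among the libraries whose table column agreed better with another file of their group, and whether this bears on the values was not tested.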

How the results depend on the processing

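The 4 members higher than EpCAM in each eGFP-positive gate numbered 4 to 5 for FSClow and 4 in each run for FSChi when single libraries were left out. FSChi had 3 on log2(TPM + 1) and log2(TPM + 0.1), where Pla2g4a against EpCAM fell short of the call (2.47, limma adjusted p = 0.0824, and 2.09, adjusted p = 0.294), and 4 on log2(TPM + 1) without the nearly empty file. The 4 members lower in FSClow than in EpCAM became 2 on log2(TPM + 1), 1 on log2(TPM + 0.1), 3 with the replicate block, 5 with no filter on low counts, and 3 to 4 when single libraries were left out. The 1 lower member in FSChi against EpCAM became 2 with relative log expression scaling and on log2(TPM + 1), with or without the nearly empty file, 3 with DESeq2 and on the normalized values, 0 on log2(TPM + 0.1), and 1 to 2 when single libraries were left out. For FSChi against FSClow, the 2 higher members became 1 with only those 2 groups, with RSEM counts with or without the nearly empty file, with the replicate block, with libraries matching their own file and on log2(TPM + 1) without that file, 0 on TPM with all files at either pseudocount, and 1 to 2 when single libraries were left out. The 2 lower members became 1 with relative log expression scaling, no filter, RSEM counts, the normalized values, log2(TPM + 1), libraries matching their own file and both runs without the nearly empty file, 0 on log2(TPM + 0.1) and with the replicate block, and 1 to 3 when single libraries were left out. Abcc1 in FSChi against FSClow reversed on TPM, to -0.26 with a pseudocount of 1 and -0.84 with 0.1, where the nearly empty file enters. The Ltc4s to Lta4h difference of FSChi and EpCAM was 10.01 with libraries matching their own file (exact permutation adjusted p = 0.30, from 2 FSChi libraries). The Alox5ap to Alox5 difference of FSChi and EpCAM changed sign on TPM with all files, to -0.34, which did not pass. On TPM without the nearly empty file it was 2.09 (exact permutation adjusted p = 0.024). It was 0.61 to 1.23 when single libraries were left out, passing without FSChi replicate 5. The cause of these changes was not tested unless stated.

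Relative log expression scaling moved the median of all genes from 0.05 to -0.139 (FSClow against EpCAM), from -0.019 to -0.14 (FSChi against EpCAM) and from -0.006 to 0.06, and the share of higher among called genes from 48.7% to 38.2% in the first. Replicate numbers are shared by the groups, and correlations of same-numbered libraries ran from -0.192 to 0.404. These correlations cannot decide whether libraries were paired, because libraries of different numbers were not compared. The numbers of FSChi replicates 3, 4 and 5 and EpCAM replicates 1 and 2 are also uncertain, as their columns agreed better with other files. The replicate block uses the same numbers. With the replicate block, Pla2g4a in FSChi against FSClow was -1.30 (edgeR adjusted p = 0.0575), Alox5ap -1.19 (0.0526) and Mgst2 3.21 (0.0694), and Mgst3 in FSClow against EpCAM was -0.79 (0.118). The block ended no other call of a member. Depth limits Mgst2 and Dpep1, and in EpCAM Ltc4s (8 counts), Alox5ap (33) and Alox5 (68), so that the folds of these 3 against EpCAM rest on few counts.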

Other observations

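The opposed order of Alox5ap and Pla2g4a among FSClow libraries was set beside other measures of the same libraries, chosen after the order was seen. The ratio of Alox5ap to Pla2g4a ran from 1.14 in replicate 6 to 11.2 in replicate 2. Il25, the gene of a cytokine of type 2 immunity, stood at 4760 and 4931 CPM in replicates 1 and 2, against 854 and 1219 CPM in replicates 5 and 6 and 155 CPM in replicate 7. Gnat3, the gene of the taste G protein gustducin, stood at 258 and 223 CPM in replicates 1 and 2 and 145 and 98.0 CPM in replicates 5 and 6.

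Over the 9 libraries, the log2 ratio ran with Gnat3 (Pearson's r = 0.89, exact permutation adjusted p = 0.0050 over 8 relations; rho = 0.82, adjusted p = 0.028; r = 0.87 without the 2 libraries farthest from the median of Gnat3). It ran with Il25 (r = 0.70, exact permutation adjusted p = 0.048; rho = 0.90, adjusted p = 0.012; r = 0.91 without 2 libraries) and against Trpm5, the gene of a taste transduction channel (r = -0.95, exact permutation adjusted p = 0.0016; rho = -0.88, adjusted p = 0.012; r = -0.86 without 2 libraries). It also ran with the summed sustentacular cell markers (r = 0.81, exact permutation adjusted p = 0.026; rho = 0.80, adjusted p = 0.028; r = 0.77 without 2 libraries). Chat gave r = -0.81 (exact permutation adjusted p = 0.026) and rho = -0.60 (adjusted p = 0.15), and r was -0.03 without the 2 farthest libraries, so that relation rests on them. Total counts (r = -0.02, exact permutation adjusted p = 0.97), detected genes (r = -0.38, adjusted p = 0.36) and olfactory sensory neuron markers (r = 0.46, adjusted p = 0.28) did not pass. The p-values treat the 9 libraries as exchangeable, although replicates 1 and 2 were the most alike pair. Basal cell markers were not among the 8 measures. Why these libraries differ was not tested.

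Of the other pairs of members in FSClow, Alox5 and Mgst3 (r = -0.86, exact permutation adjusted p = 0.033) and Pla2g4a and Ltc4s (r = -0.83, adjusted p = 0.033) passed by Pearson's r over the 28 pairs, and neither of these passed by Spearman's rho.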
